A study of Homo sapiens with 2 samples.

Results

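A set of 7 genes of the transient receptor potential (TRP) superfamily was followed by name in bronchial epithelial cells: TRPM4, TRPM7, TRPC1, MCOLN1, MCOLN3, PKD1 and PKD2. They were taken from a list of 32 TRP superfamily genes among 58051 annotated genes, and all 7 had at least 100 counts summed over both libraries, the minimum for a gene to be called measured. The TRPV3-OE library came from BEAS-2B cells, an immortalised human bronchial epithelial line, made to overexpress the cation channel gene TRPV3, at passages between 4 and 8. The parental library came from BEAS-2B cells labelled wild type, at passages between 20 and 30. Both lines were untreated, grown in LHC-9 medium on collagen and fibronectin, plated at equal density and collected at confluence. The sources used here do not say how TRPV3 was introduced or whether the overexpressing line is 1 clone.

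TRP channels are tetrameric cation channels that carry calcium, sodium and, in some members, magnesium, zinc or iron. TRPM and TRPC channels act mainly at the plasma membrane, mucolipins in endosomes and lysosomes, and polycystins in the primary cilium and the endoplasmic reticulum. In airway epithelium calcium entry and release feed mucus secretion, ciliary beating, wound closure and responses to inhaled irritants. TRPM7 and TRPM6 are channels fused to a protein kinase, TRPM4 passes sodium when internal calcium rises, and TRPC1 takes part in calcium entry after store emptying. MCOLN1 and MCOLN3 release calcium from lysosomes and endosomes. PKD1 encodes a large receptor-like protein that pairs with the channel encoded by PKD2, and loss of either gene causes polycystic kidney disease.

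The promoters of 3 members that were higher in the TRPV3-OE library are shown. Those of MCOLN1 and TRPM7 were taken because they hold the letters CACGTG, and that of MCOLN3 because its gene had the largest ratio. CLEAR is the element bound by the transcription factor TFEB and its relatives, with the core CACGTG, and its full palindrome is GTCACGTG overlapping its own reverse complement. Each line gives the 250 bases before the RefSeq transcription start, 5′ to 3′ on the strand of the gene, from build GRCh38.p14. Capitals mark CACGTG with any flanking GTCACGTG, and the GC box GGGCGG, each on either strand.
MCOLN1, chr19:7522374-7522623, plus strand: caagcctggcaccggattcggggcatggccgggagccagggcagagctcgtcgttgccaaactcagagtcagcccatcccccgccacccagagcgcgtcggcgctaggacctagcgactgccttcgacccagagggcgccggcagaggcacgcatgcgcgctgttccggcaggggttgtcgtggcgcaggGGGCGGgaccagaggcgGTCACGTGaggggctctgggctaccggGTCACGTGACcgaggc
TRPM7, chr15:50686798-50687047, minus strand: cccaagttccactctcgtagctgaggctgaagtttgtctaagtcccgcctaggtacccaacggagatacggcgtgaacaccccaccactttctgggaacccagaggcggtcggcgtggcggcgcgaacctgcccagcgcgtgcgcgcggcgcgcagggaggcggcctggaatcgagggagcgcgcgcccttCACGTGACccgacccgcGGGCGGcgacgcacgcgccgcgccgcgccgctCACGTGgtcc
MCOLN3, chr1:85048501-85048750, minus strand: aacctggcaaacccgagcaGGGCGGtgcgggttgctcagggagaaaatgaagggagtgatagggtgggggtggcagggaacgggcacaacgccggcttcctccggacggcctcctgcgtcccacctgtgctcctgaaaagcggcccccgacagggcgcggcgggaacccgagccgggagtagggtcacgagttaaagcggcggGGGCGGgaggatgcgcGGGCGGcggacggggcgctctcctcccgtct

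All 7 genes had an entry in the promoter table. CACGTG stood in 2 of the 7 windows, those of MCOLN1 and TRPM7, and in 6.32% of 34943 windows of the same length over all genes. MCOLN1 held the full CLEAR palindrome, which occurs in 0.306% of all windows, with its first base 16 bases before the start, and a second CACGTG within GTCACGTG 41 bases before it. TRPM7 held CACGTG at 59 and at 10 bases before its start, and only the first lay within GTCACGTG read on the other strand. GGGCGG stood in all 7 windows, against 42.5% of all windows, and neither CCAAT nor TATAAA stood in any of the 7, against 32.04% and 10.8% of all windows. The 7 windows held between 61.2% (TRPC1) and 79.2% (PKD1) G or C, and the windows over all genes were not matched for base composition or expression. A match describes the letters of these windows and shows no binding.

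The libraries were of nearly equal depth. Counts totalled 17477953 in the TRPV3-OE library and 17450658 in the parental library. CPM are counts scaled to library size after its adjustment by trimmed mean of M values (TMM). On that scale 1 count equals 0.0562 CPM in TRPV3-OE and 0.0584 CPM in parental cells. TRPV3 had 54077 counts in the TRPV3-OE library and 26 in the parental library. The epithelial label held in both, since all 12 epithelial markers listed were measured. Their summed levels were 7696 CPM in TRPV3-OE and 7715 CPM in parental cells. The rule for calls given below put 3 of the 12 (25%) higher in TRPV3-OE and 0 lower. It called 5.31% of all measured genes higher and 5.35% lower. Without a limit on size, 9 of the 12 stood above their parental level and 3 below it. The 3 below were KRT7, KRT5 and CDH1, at log2 ratios of −0.24, −0.40 and −0.09. KRT7 was the largest part of both sums, at 3157 CPM in TRPV3-OE and 3742 CPM in parental cells. Summed fibroblast markers stood at 124 CPM in TRPV3-OE and 98.2 CPM in parental cells, and endothelial markers at 3.26 CPM in TRPV3-OE and 16.7 CPM in parental cells. Immune markers summed to 26.1 CPM in TRPV3-OE and 4.32 CPM in parental cells, and smooth muscle markers to 5.67 CPM in TRPV3-OE and 8.17 CPM in parental cells. Of these markers 7 of 9 fibroblast, 5 of 6 endothelial, 5 of 6 immune and 4 of 5 smooth muscle genes stood below the minimum. COL3A1, KDR, PTPRC and DES, among others, had 0 counts in both libraries. Among fibroblast markers FBLN1 had 1913 counts in TRPV3-OE and 1245 in parental cells, and COL1A1 had 285 in TRPV3-OE and 410 in parental cells. The single measured smooth muscle marker ACTA2 had 100 in TRPV3-OE and 138 in parental cells. The single measured immune marker CD14 had 460 counts in TRPV3-OE and 72 in parental cells, and the single measured endothelial marker CDH5 had 35 in TRPV3-OE and 268 in parental cells. The part of other cell types in the results below was not tested.

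Each group is 1 library, so no value below has a replicate behind it and none carries a p-value. Ratios are TRPV3-OE over parental after scaling by trimmed mean of M values (TMM), and brackets give 95% intervals that cover counting error only. The sources used here do not say whether PCR copies were told apart, so the intervals may be too narrow. Passage differs with the group, so passage and TRPV3 level cannot be told apart. Calls of higher or lower required a change of 2-fold or more together with an interval wholly on that side of 1. By this rule 5.31% of 11466 measured genes were called higher and 5.35% lower.

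Among the 7 channel genes 1 was called higher, MCOLN3, and 0 were called lower. At a limit of 1.5-fold 1 was higher and 2 were lower (TRPC1 and PKD2), beside 12.7% and 14.2% of measured genes. Of the 7 genes 4 lay above a log2 ratio of 0 and 3 below. MCOLN3, TRPM7, TRPM4 and MCOLN1 were higher in the TRPV3-OE library, and PKD2, TRPC1 and PKD1 were lower, and no member's counting interval held 1. Intervals excluding 1 were common, at 72.8% of all measured genes (33.8% above and 38.9% below), so such an interval says little about a gene at this depth. The median log2 ratio of the 7 was 0.37, beside −0.03 for all measured genes, and their mean was 0.05. Their median absolute log2 ratio was 0.51, beside 0.33 for all measured genes. Together they took 4088 counts in TRPV3-OE and 3355 in parental cells, which is 0.0234% of the TRPV3-OE library and 0.0192% of the parental library. In bulk RNA fewer cells expressing a gene and less RNA per cell cannot be told apart.

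**Figure D1:**
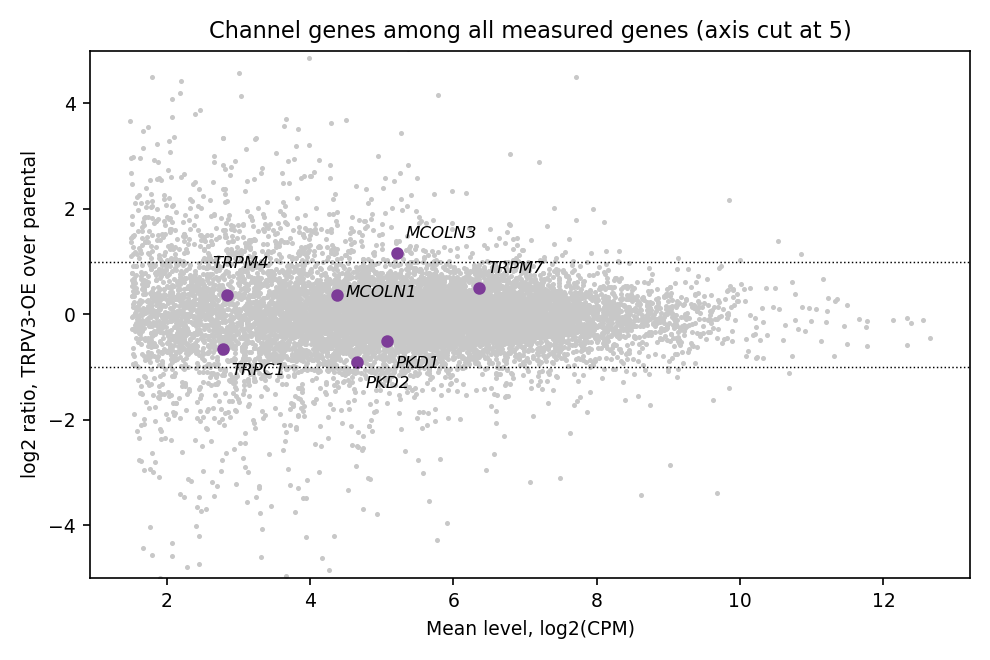
Log2 ratio of TRPV3-OE over parental (vertical) against mean level in log2 CPM (horizontal) for 11466 measured genes in grey, with the 7 channel genes in purple and dotted lines at 2-fold; 36 genes beyond a log2 ratio of 5 lie off the axis. Only MCOLN3 of the 7 lies above the upper dotted line, at 1.17, and PKD2 lies nearest to the lower one, at −0.90.

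TRPM4 (ENSG00000130529, chromosome 19, 49157741 to 49211836, plus strand, GRCh38), the calcium-activated sodium-passing channel, had 144 counts in the TRPV3-OE library and 107 in the parental library. That is 8.09 CPM (6.82 to 9.52) against 6.25 CPM (5.12 to 7.55). The log2 ratio was 0.37 (0.00 to 0.75), a 1.29-fold higher level whose interval ended at 1.001-fold. The CPM intervals of the libraries overlapped, so this difference was at the limit of what these counts can resolve. TRPM7 (ENSG00000092439, chromosome 15, 50552473 to 50686815, minus strand), the channel-kinase that supplies cells with magnesium and zinc, was the most counted of the 7. It had 1711 counts in TRPV3-OE and 1164 in parental cells, or 96.1 CPM (91.6 to 101) against 68.0 CPM (64.1 to 72.0). The intervals were apart and the level was 1.41-fold higher (1.31 to 1.52). TRPC1 (ENSG00000144935, chromosome 3, 142724074 to 142807888, plus strand), a channel of store-linked calcium entry, had 95 counts in TRPV3-OE and 144 in parental cells. Its level of 5.33 CPM (4.32 to 6.52) against 8.41 CPM (7.09 to 9.90) was 1.58-fold lower (1.21 to 2.06), the least certain of the 3 lower values because the counts are few.

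MCOLN1 (ENSG00000090674, chromosome 19, 7522626 to 7534009, plus strand) encodes the lysosomal calcium and iron channel whose loss causes mucolipidosis type IV. It had 418 counts in TRPV3-OE and 311 in parental cells, 23.5 CPM (21.3 to 25.8) against 18.2 CPM (16.2 to 20.3). The level was 1.29-fold higher (1.11 to 1.502), about the same ratio as TRPM4 with a narrower interval. MCOLN3 (ENSG00000055732, chromosome 1, 85018082 to 85048499, minus strand) encodes an endosomal and lysosomal mucolipin, known in mice from the deaf varitint-waddler mutant. It had 914 counts in TRPV3-OE and 392 in parental cells, 51.3 CPM (48.1 to 54.8) against 22.9 CPM (20.7 to 25.3). This was the largest ratio of the 7, 2.24-fold higher (1.99 to 2.53), and 4.26% of measured genes had a higher ratio.

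PKD1 (ENSG00000008710, chromosome 16, 2088710 to 2135898, minus strand), the receptor-like polycystin, had 494 counts in TRPV3-OE and 677 in parental cells. Its level of 27.7 CPM (25.3 to 30.3) against 39.5 CPM (36.6 to 42.6) was 1.42-fold lower (1.27 to 1.603). PKD2 (ENSG00000118762, chromosome 4, 88007668 to 88077777, plus strand), the polycystin channel, had 312 counts in TRPV3-OE and 560 in parental cells. That is 17.5 CPM (15.6 to 19.6) against 32.7 CPM (30.0 to 35.5), a 1.87-fold lower level (1.62 to 2.15), and 6.57% of measured genes had a lower ratio. Both polycystin genes were thus lower, and neither passed 2-fold.

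Levels of different genes were compared per length, as TPM (counts divided by exon length and scaled to a fixed sum) computed from the counts and the exon lengths of the count tables. In the TRPV3-OE library TRPM7 at 29.3 TPM (27.9 to 30.7) and MCOLN3 at 29.1 TPM (27.3 to 31.1) led and did not differ beyond counting error. MCOLN1 followed at 22.3 TPM (20.2 to 24.6) and PKD2 at 11.98 TPM (10.7 to 13.4). PKD1 at 5.61 TPM (5.12 to 6.12), TRPM4 at 4.61 TPM (3.88 to 5.42) and TRPC1 at 4.21 TPM (3.40 to 5.14) came last, with overlapping intervals. In the parental library the order began with PKD2 at 21.4 TPM (19.6 to 23.2) and TRPM7 at 19.8 TPM (18.7 to 21.0), whose intervals overlapped. MCOLN1 at 16.5 TPM (14.7 to 18.4) and MCOLN3 at 12.4 TPM (11.2 to 13.7) were next, then PKD1 at 7.63 TPM (7.07 to 8.23) and TRPC1 at 6.34 TPM (5.34 to 7.46), which overlapped, and TRPM4 at 3.40 TPM (2.79 to 4.11). MCOLN3 thus had rank 2 of the 7 in TRPV3-OE and rank 4 in parental cells, and PKD2 rank 4 in TRPV3-OE and rank 1 in parental cells. The 2 leading genes of the TRPV3-OE library lay near the middle of all measured genes, with 50.7% and 50.5% of measured genes at a lower TPM, and the 3 lowest had between 7.95% and 11.7% of genes below them.

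**Figure D2:**
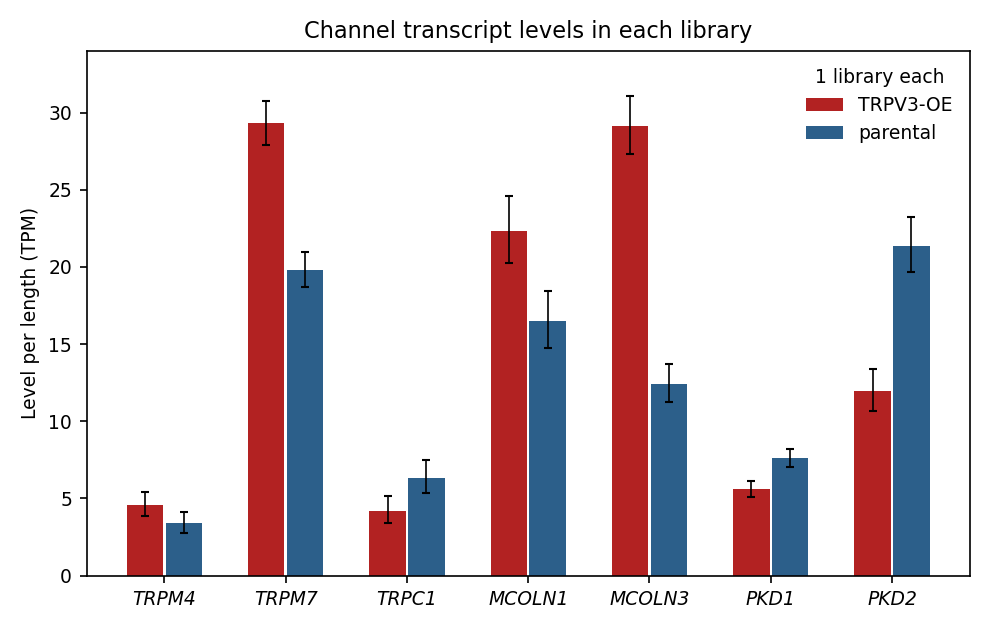
Level per length in TPM (vertical) of the 7 channel genes, with the TRPV3-OE library (red) left of the parental library (blue), 1 library each, and bars of 95% counting intervals. MCOLN3 shows the widest gap, 29.1 TPM in TRPV3-OE and 12.4 TPM in parental cells, and PKD2 the widest gap in the other direction, 11.98 TPM in TRPV3-OE and 21.4 TPM in parental cells.

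Ratios between channels within a library do not depend on how the libraries are scaled. MCOLN3 stood at 1.31 times the level of MCOLN1 per length in TRPV3-OE and at 0.753 times in parental cells, a difference of 0.79 on the log2 scale (0.52 to 1.07, counting error by normal approximation). MCOLN2, the third mucolipin, had 171 counts in TRPV3-OE and 109 in parental cells, 1.51-fold higher. MCOLN3 stood at 2.78 times MCOLN2 in TRPV3-OE and 1.87 times in parental cells, a log2 difference of 0.57 (0.19 to 0.96). The mucolipin transcripts summed to 62.0 TPM in TRPV3-OE and 35.6 TPM in parental cells. MCOLN2 and MCOLN3, which enter that sum, lie 21.0 kb apart on chromosome 1. MCOLN3 made up 47.0% of that sum in TRPV3-OE and 34.9% in parental cells, and MCOLN1 36.0% in TRPV3-OE and 46.4% in parental cells. The leading mucolipin was therefore MCOLN3 in the TRPV3-OE library and MCOLN1 in the parental library. PKD1 stood at 0.468 times PKD2 per length in TRPV3-OE and 0.357 times in parental cells, a log2 difference of 0.39 (0.13 to 0.65). TRPM7 stood at 6.36 times TRPM4 in TRPV3-OE and 5.83 times in parental cells, a log2 difference of 0.13 whose interval (−0.25 to 0.50) held 0. Against TRPC1, TRPM7 stood at 6.96 times in TRPV3-OE and 3.13 times in parental cells, a log2 difference of 1.16 (0.77 to 1.54).

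Several of the 7 ratios resembled those of genes beside them on the chromosome. For each member the median log2 ratio of its 50 nearest measured genes was taken, which here spanned between 1.67 and 21.9 Mb. Around MCOLN3 that median was 0.70, with 45 of 50 neighbours above 0. Around PKD2 it was −0.77, with 49 of 50 below 0. Both lie outside the range from −0.42 to 0.27 that holds the local medians of the middle 80% of measured genes. Around PKD1 the median was −0.59, also outside that range, with 46 of 50 below 0. Around TRPM7 it was 0.30, just above that range, with 37 of 50 above 0, and 0.25 when taken over 100 genes. TRPM4, TRPC1 and MCOLN1 had neighbours with medians inside that range, at −0.07, −0.17 and −0.13, with 31, 34 and 35 of 50 below 0.

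PKD1, PKD2 and TRPM7 lay between the 25th and 75th percentile of their own neighbours, and the other 4 genes lay outside. After subtraction of the local median PKD1 stood at 0.07 and PKD2 at −0.13 on the log2 scale, against −0.51 and −0.90 before, and TRPM7 at 0.20 against 0.50. MCOLN3 stood at 0.46 against 1.17, a 1.38-fold higher level than its neighbours, and was then no longer past 2-fold, so that 0 of the 7 were called. After that subtraction 5.09% of 11438 genes with a local median were called higher and 3.75% lower. MCOLN1 stood at 0.50 and TRPM4 at 0.44, both above 43 or more of their 50 neighbours, and TRPC1 at −0.48, below 44 of 50. Of the 7 genes 5 shared the sign of their local median, as did 69.5% of all measured genes. The part of the chromosomal neighbourhood in these ratios was not tested.

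**Figure D3:**
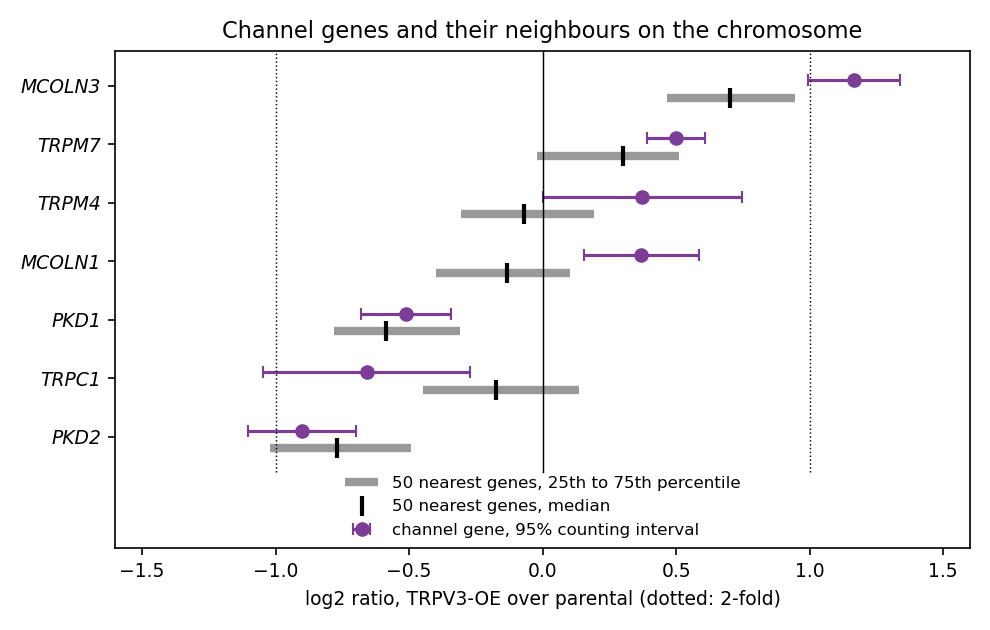
Log2 ratio of TRPV3-OE over parental (horizontal) for the 7 channel genes (purple, with 95% counting intervals), above the median (black tick) and the 25th to 75th percentile (grey bar) of the 50 nearest measured genes. The bars of MCOLN3 (median 0.70) and PKD2 (median −0.77) are shifted the same way as the genes themselves, while MCOLN1 at 0.37 lies right of a bar centred on −0.13.

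The nearest measured protein-coding gene on either side of each member did not always match the wider neighbourhood. MCOLN3 is flanked by MCOLN2, 21.0 kb away, at a log2 ratio of 0.59 (0.24 to 0.95) and by SYDE2, a GTPase-activating protein gene, at 0.95 (0.62 to 1.29). The 50 nearest genes of MCOLN2 had a median of 0.75, and after its subtraction MCOLN2 stood at −0.15. PKD2 is flanked by the xenobiotic exporter gene ABCG2, 12.5 kb away on the opposite strand, with 32 counts in TRPV3-OE and 116 in parental cells (3.77-fold lower), and by NUDT9, 548 kb away, at −0.39 (−0.57 to −0.21). PKD1 lies between the tuberous sclerosis gene TSC2, at −0.22 (−0.34 to −0.09), and TRAF7, at −0.30 (−0.38 to −0.21), and its own −0.51 lay below both, although it was close to the median of its 50 nearest genes. TRPM7 lies between the deubiquitinase gene USP8, at 0.41 (0.31 to 0.52), and the protease gene SPPL2A, at 0.41 (0.29 to 0.53), both close to its own 0.50. TRPC1 lay below both of its neighbours, PLS1 at 0.45 (0.31 to 0.58) and U2SURP at −0.05 (−0.11 to 0.02). MCOLN1 lay above ZNF358, at −0.85 (−1.11 to −0.60), and PNPLA6, at 0.11 (−0.01 to 0.23). TRPM4 lay above PPFIA3, at 0.05 (−0.45 to 0.55), and the TEAD2 gene, at −0.97 (−1.21 to −0.74).

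**Figure D4:**
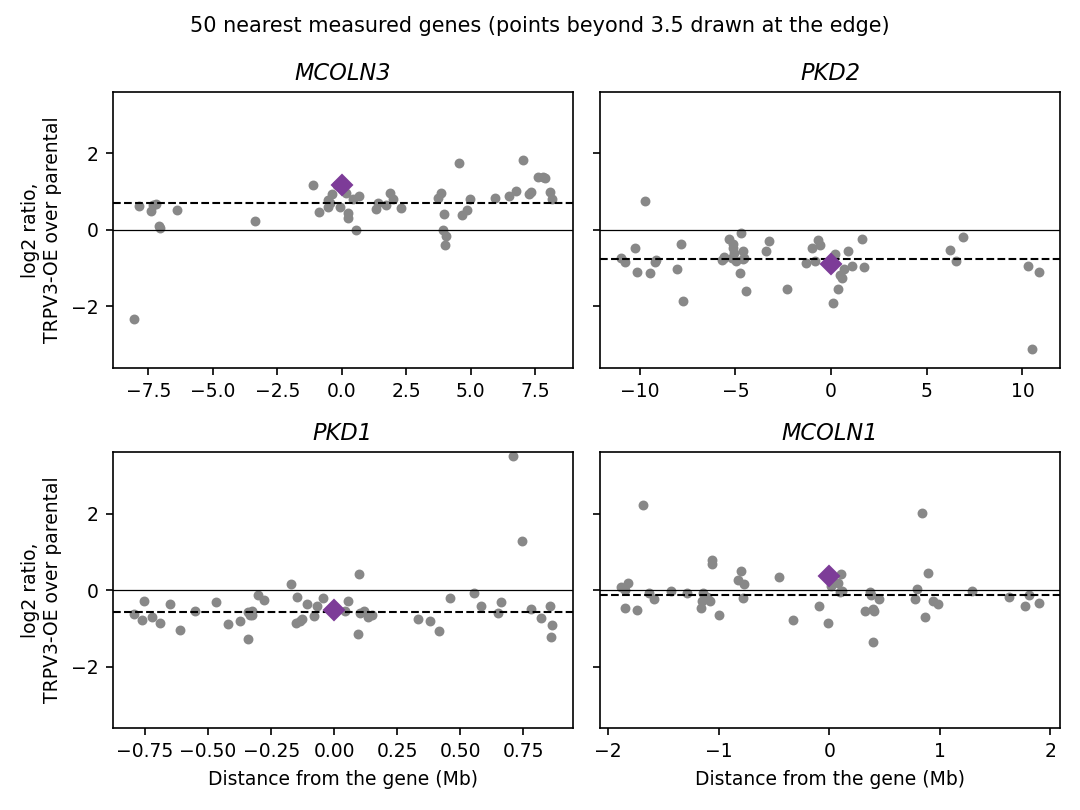
Log2 ratio of TRPV3-OE over parental (vertical) of the 50 nearest measured genes against their distance in Mb (horizontal) around MCOLN3, PKD2, PKD1 and MCOLN1, with the channel gene as a purple diamond and the local median dashed. Points around MCOLN3 lie mostly above 0 (45 of 50), those around PKD2 and PKD1 mostly below (49 and 46 of 50), and the diamond of MCOLN1 lies above 43 of its neighbours.

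Counting affects PKD1 more than the other members. Reads that align to several places were left out by default, and PKD1 has near-identical pseudogene copies on the same chromosome. Of the 50-base windows of its annotated transcripts 27.7% also occur in transcripts of genes elsewhere, among them 4 PKD1 pseudogenes, and 10.4% of 100-base windows do. The last shared 50-base window of the transcript PKD1-201 begins at base 10467 of 14138, so that the 3622 bases at the 3′ end have no such copy. The level of PKD1 per length is therefore uncertain in both libraries, and the read length is not known here. The other members shared between 0% and 1.66% of 50-base windows and none of their 100-base windows. The pseudogenes had few counts of their own. Reads that align to several places were left out there too, so these counts do not measure how far the pseudogenes are expressed. PKD1P6 had 31 in TRPV3-OE and 42 in parental cells, PKD1P3 had 25 in TRPV3-OE and 26 in parental cells, PKD1P2 had 3 in TRPV3-OE and 10 in parental cells, PKD1P4 had 4 in TRPV3-OE and 10 in parental cells, and PKD1P1 and PKD1P5 had 0 in both. MCOLN1 shares 4.42% of its exon bases with same-strand genes, PNPLA6 among them, and reads there were not assigned. On the opposite strand TSC2 and 3 other annotated genes cover 3.56% of the PKD1 exon bases, and an annotated gene with 0 counts in both libraries covers 4.91% of the TRPM7 exon bases on its opposite strand.

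Little was detected of the rest of the TRP superfamily. Of the 25 other genes 4 were measured, 20 had fewer than 10 counts in each library, and 11 had none in either, which allows up to 0.168 CPM in TRPV3-OE and 0.175 CPM in parental cells at 3 counts. Outside the mucolipins those with 10 or more counts in a library were the overexpressed TRPV3 and its relatives TRPV4, TRPV1 and TRPA1, channels of heat, osmotic and chemical irritants. TRPV4 had 223 counts in TRPV3-OE and 21 in parental cells, TRPV1 had 86 in TRPV3-OE and 30 in parental cells, and TRPA1 had 37 in TRPV3-OE and 4 in parental cells. Of the 7 channel genes followed here, all but MCOLN3 had ratios within 2-fold. Neither TRPM6, the kinase-fused relative of TRPM7, nor TRPM5, the relative of TRPM4 found in tuft cells, had a count in either library, and TRPC5 and TRPC7 had none.

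The partner genes of each channel type were taken from 6 lists with 130 genes, of which 113 were measured. Of these 5 were called higher and 5 lower, beside 5.31% and 5.35% of all measured genes. These lists, like the members, were chosen with earlier results of these data known. One list held other endolysosomal channels, their partners and the enzymes of the lipid that activates mucolipins. Of its 16 measured genes 1 was called higher (6.25%) and 0 lower, with a median log2 ratio of 0.06. The one higher was TPCN1, a lysosomal sodium and calcium channel gene, with 2844 counts in TRPV3-OE and 1353 in parental cells (2.02-fold, 1.02 with an interval of 0.92 to 1.11 on the log2 scale), while its 50 nearest genes had a median of −0.04. The chloride transporter gene CLCN6 stood at −0.58, the lipid phosphatase gene FIG4 at 0.56 and the lysosomal amino acid transporter gene SLC38A9 at 0.50, all short of 2-fold.

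Among 33 measured genes of the TFEB family and its lysosomal targets, 3 were called higher (9.09%) and 1 lower (3.03%), with a median of 0.02. The cathepsin gene CTSF had 98 counts in TRPV3-OE and 12 in parental cells (7.85-fold higher). MITF, a TFEB relative best known from melanocytes, had 250 counts in TRPV3-OE and 104 in parental cells (2.31-fold higher). TFE3, the most counted of the 3 TFEB family factors listed, had 586 counts in TRPV3-OE and 1175 in parental cells (2.08-fold lower), with a local median of −0.74. TFEB itself, named after its value was seen, had 154 counts in TRPV3-OE and 147 in parental cells, a log2 ratio of 0.01 (−0.32 to 0.35).

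None of 20 measured genes of polycystin folding, trafficking and the cilium was called higher or lower (median 0.11). The ciliary transport genes IFT20 at 0.56, KIF3A at 0.55 and IFT140 at −0.56 had the largest log2 ratios, followed by PRKCSH, a glucosidase subunit needed to fold polycystins, at 0.43. Among 20 measured partners of TRPC1 and store-operated entry 1 was called higher (5%) and 3 lower (15%), with a median of −0.14. The phospholipase gene PLCB4 had 92 counts in TRPV3-OE and 486 in parental cells (5.49-fold lower), and its neighbour on chromosome 20, PLCB1, had 156 in TRPV3-OE and 36 in parental cells (4.17-fold higher). The local median log2 ratio was 0.58 around PLCB4 and 0.57 around PLCB1. The inositol trisphosphate receptor gene ITPR2 had 91 counts in TRPV3-OE and 324 in parental cells (3.70-fold lower). CAV1, the caveolin that binds TRPC1 at the membrane, had 8995 counts in TRPV3-OE and 22838 in parental cells (2.64-fold lower).

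Among 17 measured genes of magnesium transport and TRPM7 partners 0 were called higher and 1 lower (5.88%), with a median of 0.15. The lower one was ANXA1, a substrate of the TRPM7 kinase, with 6059 counts in TRPV3-OE and 13251 in parental cells (2.27-fold lower). The magnesium transporter genes CNNM2 at 0.63, SLC41A2 at 0.55 and NIPA1 at 0.51 on the log2 scale were short of 2-fold. Of 7 measured calcium-activated channels and TRPM4 partners none was called (median 0.38), although ANO9 passed 2-fold relative to its 50 nearest genes. The potassium channel subunit gene KCNMB4 stood at 0.72, the anoctamin gene ANO9 at 0.64, and the calmodulin gene CALM3 at −0.59. ABCC8, whose product SUR1 can join TRPM4, had 0 counts in both libraries.

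**Figure D5:**
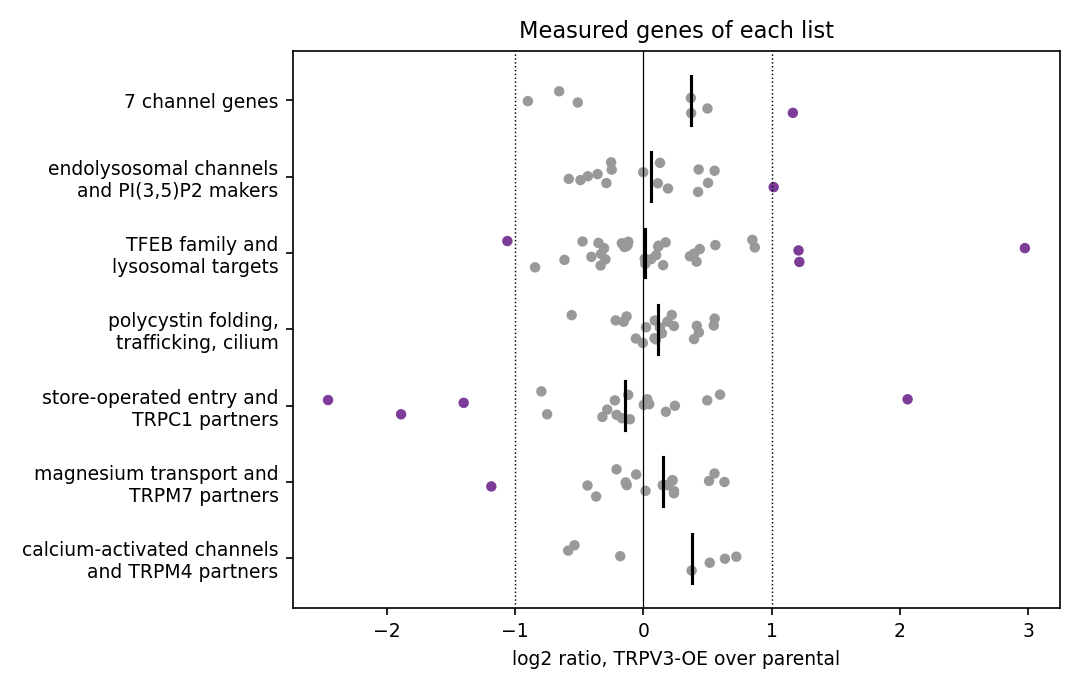
Log2 ratio of TRPV3-OE over parental (horizontal) of each measured gene in the 7 channel genes and in the 6 partner lists (rows), with called genes in purple, others in grey, medians as black bars and dotted lines at 2-fold. Called genes number 4 of 33 among the TFEB family and lysosomal targets and 4 of 20 among the TRPC1 partners. Each other row has at most 1, and 10.7% of all measured genes were called in either direction.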

How the data were processed

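RNA sequencing gave 1 library of TRPV3-overexpressing and 1 of parental BEAS-2B cells, grouped by the genotype label. The deposited values are raw counts per gene, made by the authors with featureCounts 1.5.0-p3 at strand setting 2 on Ensembl release 87 models of GRCh38.p7, per the file headers. Those headers set no option for multi-mapping or overlapping reads, which the tool leaves out by default. Merged exon lengths also come from the deposited tables. The submitters' processing notes name STAR and DESeq2 with no version.

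Of 58051 IDs 56948 had a symbol in the name table, and transcripts came from GENCODE 29. TMM factors were 1.02 for TRPV3-OE and 0.981 for parental (edgeR 4.0.16). CPM and TPM carry exact Poisson intervals and ratios exact conditional binomial (Clopper-Pearson) intervals, all at 95%, with 0 counts entered as 0.5. No dispersion can be estimated, so no model was used. The calculation was tested on simulated data.

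The members and lists were chosen with earlier results of these data known. Named are the members, other TRP genes with at least 10 counts in a library, called genes and up to 4 of the largest absolute ratios per list, and adjacent measured genes, some of which are not reported here. A pattern over 2 libraries is 1 ratio, so no gene is named as most alike. Alternatives were total-count, DESeq2 (1.42.0) and upper-quartile scaling, a prior count of 5, limits of 1.5-fold and 4-fold, minimums of 1, 20 and 500 counts, subtraction of local medians (20, 50 or 100 genes), and TPM without mitochondrial genes and TRPV3. Further tools were R 4.3.3, Python 3.11.15, matplotlib 3.10.9, pandas 2.3.3, scipy 1.17.1 and numpy 2.4.6.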

Additional observations from a re-analysis of the deposited data

How the results depend on the processing

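No paired analysis was possible because there is only 1 library in either group, which also leaves no replicate to omit. Under the 3 other scalings and the prior count of 5 each member ratio stayed inside its counting interval, with MCOLN3 called higher and no other member called. The number of members called higher, 1, was 0 at 4-fold and 0 once the local median over 50 genes was subtracted, and the number called lower, 0, was 2 at 1.5-fold (TRPC1 and PKD2), as the limit sets by construction. Partner genes called higher, 5, were 11 at 1.5-fold, beside 12.7% of all measured genes, and 2 at 4-fold. They were 2, 6 and 7 with minimums of 500, 20 and 1 counts. After subtraction of local medians they were 6, where ANO9 of the TRPM4 partner list (1.34) was added. Those called lower, 5, were 10 at 1.5-fold, beside 14.2% of all measured genes, and 1 at 4-fold. They were 4, 6 and 7 with minimums of 500, 20 and 1 counts. After subtraction of local medians they were 3, where TFE3 (−0.32) and ANXA1 (−0.995) lay short of 2-fold. The number of partner genes tested changed with the minimum, as in the TFEB list, with 28, 34 and 35 genes at minimums of 500, 20 and 1. For 4-fold and for these minimums no share of all genes was taken, so those counts are not read against one. Across scalings the median of all measured genes shifted by at most 0.0582 on the log2 scale. After local subtraction the median log2 ratio of the members was 0.20, against 0.37 before. The list medians became 0.24 (endolysosomal, 0.06 before), 0.14 (TFEB, 0.02), 0.21 (polycystin, 0.11), −0.01 (TRPC1 partners, −0.14), −0.02 (magnesium, 0.15) and 0.38 (TRPM4 partners, 0.38). Leaving mitochondrial genes and TRPV3 out of TPM put MCOLN3 at 34.4 TPM in TRPV3-OE and 14.7 TPM in parental cells. Local medians over 20 or 100 genes stayed within the 25th to 75th percentile of the 50. Genes with about 100 counts, as TRPM4 and TRPC1, have intervals too wide to place differences under about 1.5-fold.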

Other observations

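Of the 130 partner genes 113 were measured. Some of the rest, below the minimum of 100 counts and named after their values were seen, had ratios beyond 2-fold. Others did not, as PLCB2 with 5 counts in TRPV3-OE and 6 in parental cells, and PLCG2 with 9 in each. The share of all genes below the minimum that pass 2-fold was not taken, so the values are not set against one. RRAGD, a lysosomal GTPase gene and TFEB target, had 50 counts in TRPV3-OE and 12 in parental cells (log2 ratio 2.003, 1.07 to 3.05). BEST1, a calcium-activated chloride channel gene, had 14 in TRPV3-OE and 2 in parental cells (log2 ratio 2.75, 0.63 to 5.93). KCNMA1, the large-conductance potassium channel gene of airway epithelium, had 3 counts in TRPV3-OE and 25 in parental cells (log2 ratio −3.12, −5.49 to −1.40). PTP4A3, a phosphatase gene whose product binds magnesium transporters, had 1 in TRPV3-OE and 18 in parental cells (log2 ratio −4.23, −9.61 to −1.56). The intervals cover counting error only, and no replicate checks these values.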
